A study of Mus musculus with 18 samples.

Results

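The accessible regions at 9 genes of T cell costimulation and activation were examined in an ATAC-seq series of mouse CD4 T cells. A region was taken when the authors' deposited table named Cd28, Icos, Tnfrsf4, Tnfrsf9, Tnfrsf18, Cd27, Cd40lg, Slamf1 or Cd69 as overlapped or as a neighbour on its left or right. This gave 52 of the 65983 regions of the table. Naive CD4 T cells had been stimulated with beads carrying antibodies to CD3 and CD28 and grown in Th1 medium with IL2, IL12 and an antibody to IL4. The 18 samples formed 6 groups of 3, namely Id3-KO and WT cells labelled Th1 at 24 h, and Id3-KO and WT cells labelled Tcmp and Teff at 72 h, where KO is a knockout of Id3 (allele: not given in the sources used here). The samples are labelled as T cells, and Tcmp and Teff are used as the labels give them.

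A T cell responds fully when its antigen receptor is engaged together with a costimulatory receptor. CD28 and ICOS, of the immunoglobulin superfamily, recruit phosphoinositide 3-kinase, while OX40 (Tnfrsf4), 4-1BB (Tnfrsf9), GITR (Tnfrsf18) and CD27 belong to the TNF receptor superfamily and signal through TRAF adaptors to NF-kB. Not all 9 genes encode costimulatory receptors in the strict sense. Cd40lg encodes CD40 ligand, through which helper T cells activate B cells and dendritic cells, Slamf1 a receptor that binds itself on other cells, and Cd69 a C-type lectin that appears early after activation and retains lymphocytes in tissue. Id3 inhibits E proteins, basic helix-loop-helix factors that bind the E-box.

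All 9 genes had a region at a promoter, and the number of regions per gene ran from 2 at Cd69 to 10 at Cd28 and Tnfrsf9. The table lists merged regions and not samples, so each count is a single value without replicate error, and the comparisons below are descriptions with no test. The depth of the libraries is unknown from the table. The rows of positions, widths, windows and gene names were identical under 6 of the 6 contrasts. The p-values and fold changes beside them were not read at these genes, because they followed the order of the rows: the region p-value divided by its number of windows showed 0 falls down the table in each contrast, over regions with a p-value below 1. No difference between Id3-KO and WT cells is therefore given for any of the 9 genes.

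Positions are on GRCm39, the build named in the submitters' processing notes. The table marks each gene that a region overlaps with P for its promoter, E for an exon or I for an intron, and gives a distance of at most 5000 bp to flanking features. The reach of P was read from the table: of 6685 gene and region pairs lying up to 3000 bp upstream of a gene, 6685 carried P, and of 4676 lying farther away, 0 did. Past the first exon edge, 819 of 819 pairs within 999 bp carried P, against 33.0% of those at 1001 to 2000 bp, and the nearest pair without P lay at 1000 bp. The promoter letter was therefore read as reaching 1000 bp past a start. Regions were placed in 1 class each, promoter first, then exon, then intron, and a region that named the gene only as a neighbour was called flanking.

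RefSeq promoter sequences on GRCm38.p6 were found for 5 of the 9 genes, with 2 starts for Tnfrsf9. They are shown because a promoter region was listed at each of these genes and because E proteins, the partners of Id3, bind the E-box, CANNTG. Each run holds the 250 bases before the start, 5′ to 3′ on the strand of the gene, with E-boxes in capitals. The build differs from that of the regions, so these bases were not placed within them.
Tnfrsf4, chr4:156013445-156013694, plus strand: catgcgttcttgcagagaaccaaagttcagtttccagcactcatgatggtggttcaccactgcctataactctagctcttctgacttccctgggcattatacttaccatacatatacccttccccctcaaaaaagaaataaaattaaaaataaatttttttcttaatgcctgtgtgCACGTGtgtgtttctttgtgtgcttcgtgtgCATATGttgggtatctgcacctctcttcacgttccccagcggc
Tnfrsf9 first start, chr4:150919905-150920154, plus strand: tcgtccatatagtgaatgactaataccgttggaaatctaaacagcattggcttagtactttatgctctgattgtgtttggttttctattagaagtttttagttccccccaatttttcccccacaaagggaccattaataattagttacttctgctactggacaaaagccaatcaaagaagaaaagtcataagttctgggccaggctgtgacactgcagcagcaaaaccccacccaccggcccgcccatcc
Tnfrsf9 second start, chr4:150927749-150927998, plus strand: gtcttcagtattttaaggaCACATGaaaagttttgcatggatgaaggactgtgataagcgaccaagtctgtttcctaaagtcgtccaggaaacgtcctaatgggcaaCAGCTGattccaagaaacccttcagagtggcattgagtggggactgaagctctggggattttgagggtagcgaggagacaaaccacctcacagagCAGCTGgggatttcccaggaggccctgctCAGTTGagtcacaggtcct
Tnfrsf18, chr4:156026072-156026321, plus strand: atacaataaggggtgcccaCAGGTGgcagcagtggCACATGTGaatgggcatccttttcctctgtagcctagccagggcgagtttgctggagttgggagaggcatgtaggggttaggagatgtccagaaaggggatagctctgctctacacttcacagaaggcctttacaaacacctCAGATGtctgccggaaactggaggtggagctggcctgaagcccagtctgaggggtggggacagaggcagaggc
Cd27, chr6:125237028-125237277, minus strand: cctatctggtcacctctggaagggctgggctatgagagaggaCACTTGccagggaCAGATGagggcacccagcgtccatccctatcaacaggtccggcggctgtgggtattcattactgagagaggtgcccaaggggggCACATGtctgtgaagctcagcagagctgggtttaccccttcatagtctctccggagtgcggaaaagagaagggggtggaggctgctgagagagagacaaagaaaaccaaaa
Slamf1, chr1:171766882-171767131, plus strand: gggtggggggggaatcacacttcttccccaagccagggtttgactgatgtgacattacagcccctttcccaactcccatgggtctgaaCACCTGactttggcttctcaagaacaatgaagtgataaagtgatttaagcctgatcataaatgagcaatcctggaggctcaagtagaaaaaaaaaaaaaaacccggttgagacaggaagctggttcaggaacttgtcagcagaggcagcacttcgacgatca

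An E-box was present in 5 of these 6 promoters, and in 66.2% of all 32851 RefSeq promoters over the same 250 bases. The second start of Tnfrsf9 and the start of Tnfrsf18 each had 4, Cd27 had 3, Tnfrsf4 had 2 and Slamf1 had 1, while the median over all promoters was 1 (quartiles 0 and 2). The first start of Tnfrsf9 had 0, so the 2 starts of this gene, 7844 bp apart, differed in E-box number. CANNTG reads the same on both strands, and overlapping matches were counted, as in the Tnfrsf18 run where 2 of the 4 overlap (beginning at -215 and -213 from the start).

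Of the particular E-box cores, CAGCTG occurred only in the second Tnfrsf9 promoter, at -143 and -48 (13.0% of all promoters held it). CAGGTG, or CACCTG on the other strand, occurred in the Tnfrsf18 promoter at -231 and in the Slamf1 promoter at -162 (17.2% of all promoters). Both cores are special cases of CANNTG and are counted there too. The second Tnfrsf9 promoter also held the AP-1 letters TGANTCA at -15, present in 6.75% of all promoters, where they overlap the E-box at -19. It also held TTCNNNGAA, the STAT letters, at -136, as the Tnfrsf18 promoter did at -99 (7.02% of all promoters). The NFAT core TGGAAA occurred at Tnfrsf4 and at the first Tnfrsf9 start (18.6%) and the ETS letters CCGGAA at Tnfrsf18 (12.0%). RUNX letters (TGTGGT, 14.0%) and T-box letters (AGGTGTGA, 1.12%) were in 0 of the 6 runs. Both strands were searched, and a match is a run of letters and not a shown binding site.

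**Figure D1:**
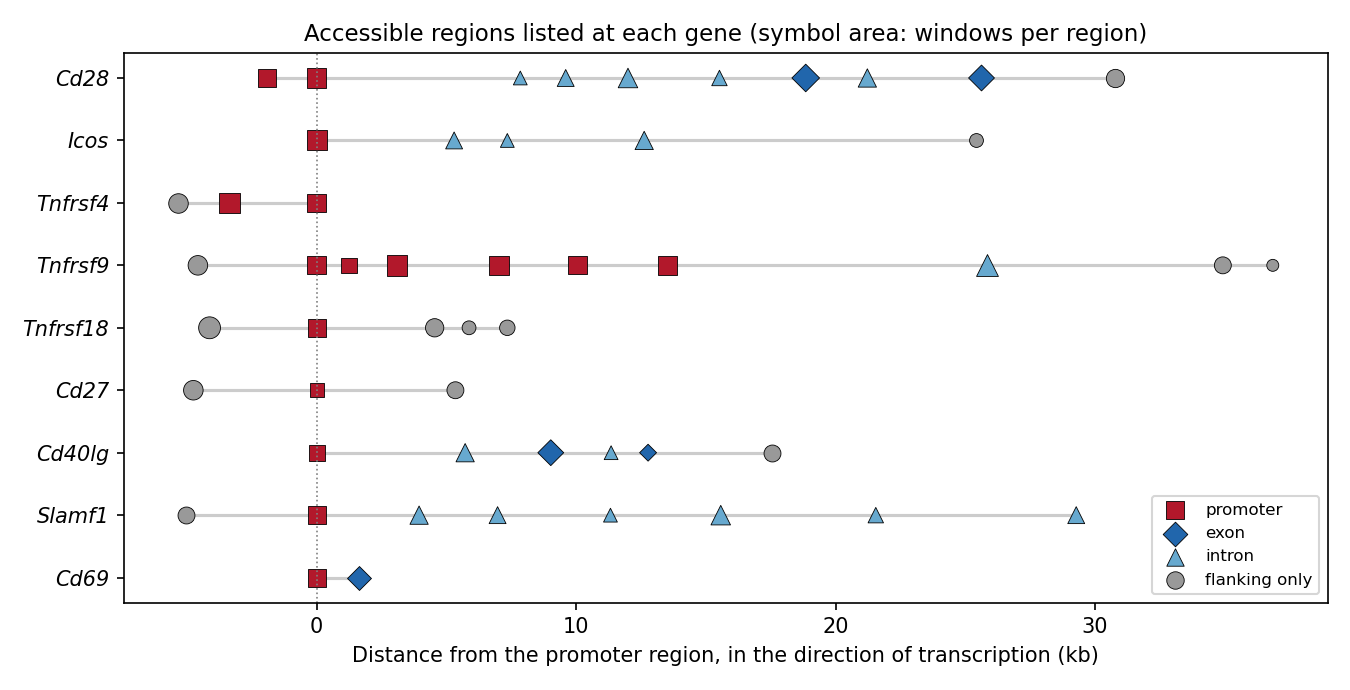
Regions listed at each of the 9 genes, by distance of the region's centre from that of the promoter region (the first one that also overlaps an exon, or for Cd40lg the only one), in kb along the direction of transcription. Symbols give the class and their area the number of windows; Cd28, Tnfrsf9 and Slamf1 carry 10, 10 and 8 regions, and Cd69 carries 2 that lie close together.

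The CD28 family genes both had regions from the promoter into the body of the gene. Cd28, the receptor for CD80 and CD86, had 10 regions, which were 2 promoter, 2 exon, 5 intron and 1 flanking region over 33300 bp of chromosome 1. Its promoter regions were chr1:60783301-60783900, in an intron and 1617 bp before the next exon, and chr1:60785201-60785850, over that exon. The 5 intron regions had 4 to 8 windows each and lay between 60793151 and 60807050. The flanking region began 3483 bp past the last exon and overlapped 3 genes for which the table gives only identifiers.

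Icos, which binds ICOS ligand and supports follicular helper cells, had 5 regions on chromosome 1. These were a promoter region at chr1:61016701-61017350, 3 intron regions at 61022051, 61024151 and 61029351, and a flanking region at 61042201, 2722 bp past the last exon. The promoter region had 8 windows and the last region 4. A stretch of 12250 bp with no region separated the last 2. Between the last Cd28 region and the first Icos region lay 200100 bp with 35 regions. Of these, 12 named Ctla4, the inhibitory receptor that shares its ligands with CD28, and 17 named no gene.

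The 4 TNF receptor genes differed more from each other in their regions. Tnfrsf9, whose product 4-1BB is induced on activated T cells, had 10 regions, which were 6 promoter, 1 intron and 3 flanking regions. Tnfrsf18 had 5, Tnfrsf4 had 3 and Cd27 had 3. The last 2 counts were the median of the 15528 protein-coding genes named in the table, which was 3 (quartiles 1 and 4).

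At Tnfrsf9 the 6 promoter regions covered 14150 bp, from 150998601 to 151012750 on chromosome 4, with 5 to 9 windows each. With the reach read above, 3000 bp before a start and 1000 bp past it, a single start cannot cover them and at least 3 are needed; RefSeq on GRCm38.p6 gave 2 in the promoter table. The first of them, chr4:150998601-150999200, also overlapped the promoter and an exon of Park7, a gene of oxidative stress defence on the opposite strand. The gene had 1 region in an intron only, chr4:151024351-151025100, which with 10 windows and 750 bp was the broadest of its 10. Most of the 6 promoter regions also overlapped an intron, so that by any I letter the gene had 5 such regions. Past the last exon 2 further regions followed at 2992 and 4992 bp. All 10 regions also overlapped Park7 or Camta1, a calmodulin-binding transcription activator, so the gene to which each belongs cannot be told apart by position.

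Tnfrsf4 and Tnfrsf18 are neighbours on chromosome 4 and both encode receptors known for high levels on regulatory T cells. The last Tnfrsf4 region and the first Tnfrsf18 region were 7650 bp apart, with 0 regions between them. Tnfrsf4 had a region over its first exon, chr4:156098001-156098600 with 7 windows, a region of 9 windows ending exactly 3000 bp before that exon, which is the limit of the promoter letter, and a flanking region of 8 windows ending 5000 bp before it, which is the largest distance the table gives. All 3 also overlapped Sdf4, a calcium-binding protein of the Golgi.

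Tnfrsf18 was the gene with the largest share of flanking regions, 4 of 5. Its only overlapping region, chr4:156110451-156111050, lay over the promoter and an exon and had 7 windows. A region of 10 windows ended 3621 bp upstream, and 3 regions of 7, 4 and 5 windows followed at 1649, 3049 and 4499 bp past the last exon. All 5 also overlapped other genes, among them a gene listed only by its identifier on the opposite strand.

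Cd27, a receptor present on naive T cells whose ligand is CD70, had 3 regions on chromosome 6. Its promoter region, chr6:125213751-125214200, was with 4 windows and 450 bp the narrowest of the 16 promoter regions of the 9 genes. The other 2 were flanking, 685 bp past the end of the gene and 4428 bp before its start. All 3 also overlapped Vamp1, a SNARE protein of vesicle fusion.

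Cd40lg on the X chromosome had 6 regions and was the only one of the 9 without a region that overlapped both the promoter and an exon. Its promoter region, chrX:56255851-56256400 with 6 windows, ended 1103 bp before the first exon, which the distance places at 56257503. Of the 6 genes for which an upstream region gives the outermost start, Cd40lg was the one with no region over it, and the other 5 had one. The remaining regions were 2 in exons, 2 in introns and 1 flanking, 3999 bp past the last exon. No region of Cd40lg overlapped another gene.

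Slamf1 had 8 regions over 34850 bp of chromosome 1, of which 6 fell in the intron class, the largest number among the 9 genes. Counted by any I letter, Cd28 had 6 as well. The promoter region was chr1:171594401-171595000 with 7 windows, over the first exon edge at 171594695. The 6 intron regions had 4 to 8 windows, with gaps of 2450 to 7200 bp between neighbouring regions of the gene. The flanking region ended 4745 bp upstream of the start.

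Cd69 had the fewest regions, 2 on chromosome 6, both overlapping the gene. These were a promoter and exon region at chr6:129252101-129252700 with 7 windows and an exon region at chr6:129250501-129251050 with 6 windows, 1050 bp apart. It was the only member with no flanking region.

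**Figure D2:**
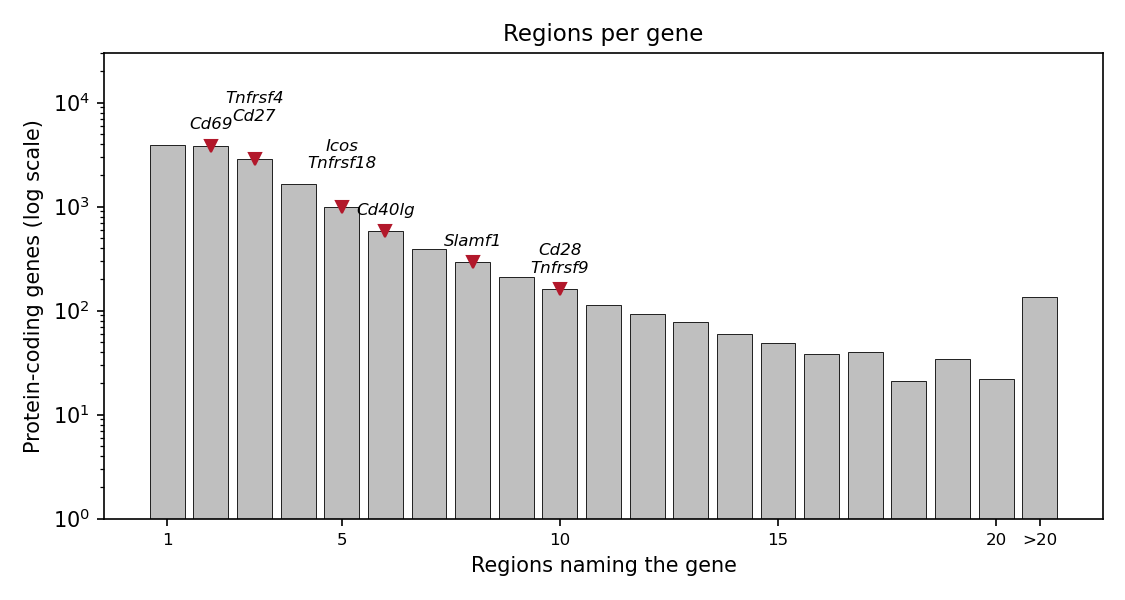
Number of protein-coding genes (log axis) by number of regions naming the gene in the table; the last bar holds genes with more than 20. Triangles mark the 9 genes, from Cd69 with 2 regions to Cd28 and Tnfrsf9 with 10, against a median of 3.

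Against all protein-coding genes named in the table, the median of the 9 genes was 5 regions (quartiles 3 and 8) against 3. Cd28 and Tnfrsf9 had more regions than 94.6% of these genes, Slamf1 more than 91.3%, Cd40lg more than 85.1% and Icos and Tnfrsf18 more than 78.7%. Tnfrsf4 and Cd27 had more than 49.9%, with 18.3% at the same count, and Cd69 more than 25.1%, with 24.8% at the same count. With overlapping regions alone, Tnfrsf18 and Cd27 had 1 region each and stood above 4.55% of genes, with 35.4% at the same count. Cd28 then stood above 94.1%. Longer genes can hold more regions, and no gene lengths of this build were at hand, so the counts were not divided by length.

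A promoter region was listed at 9 of the 9 genes and at 87.0% of the protein-coding genes named in the table. Counted over all protein-coding symbols of RefSeq, including those the table does not name, the share was 61.7%. A region over promoter and exon together was listed at 8 of 9 genes, and at 78.4% of the named protein-coding genes. Counted by any E letter, promoter regions included, a region over an exon was listed at 9 of 9 (84.4%). With the promoter class taken first, only Cd28, Cd40lg and Cd69 had a region in the exon class. By any I letter, a region over an intron was listed at 5 of 9 (48.1%). A flanking region was listed at 8 of 9 (44.5%). With 9 genes these shares are counts and are not read as properties of the group.

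**Figure D3:**
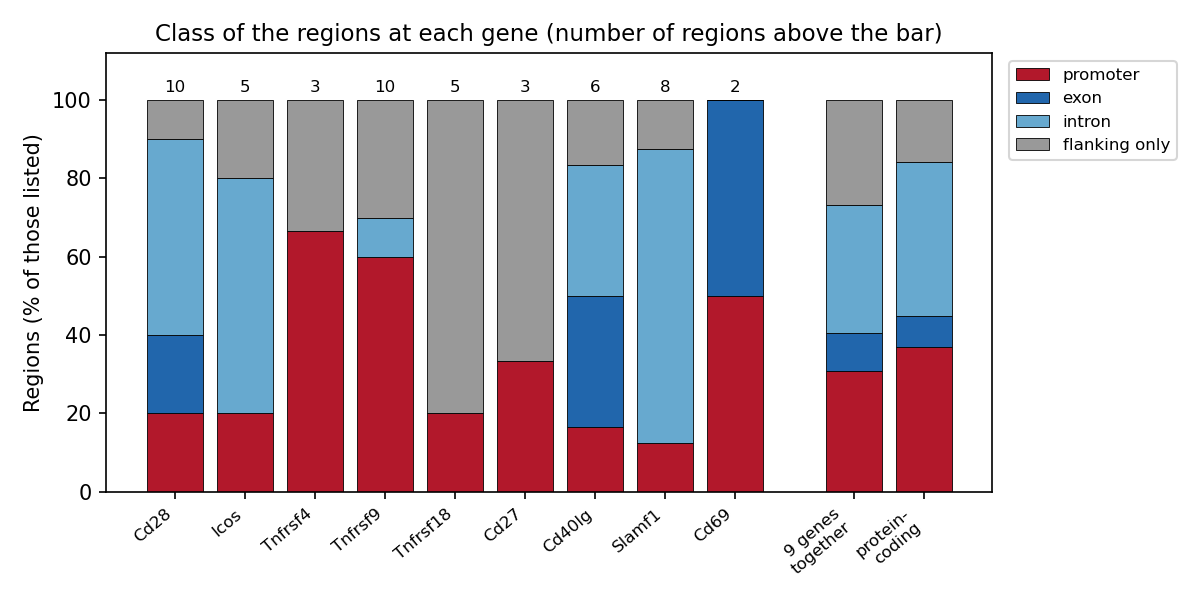
Share of the regions of each gene in each class (%), with the number of regions above the bar, beside the 9 genes together and all protein-coding genes. With the promoter class taken first, Slamf1 and Icos are mostly intronic, Tnfrsf4 and Tnfrsf9 mostly at promoters, and Tnfrsf18 and Cd27 mostly flanking.

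Of the 52 regions 16 were at promoters (30.8%), 5 in exons (9.62%), 17 in introns (32.7%) and 14 flanking (26.9%). Over all protein-coding genes the shares were 36.9%, 7.95%, 39.4% and 15.8%. The exon comparison turned with the rule: counted by any E letter, 14 of the 52 regions (26.9%) overlapped an exon, against 34.3% over protein-coding genes. Of the 17 intron regions, 14 lay at Cd28, Icos and Slamf1, and none at Tnfrsf4, Tnfrsf18, Cd27 or Cd69. The 14 flanking regions lay a median of 3810 bp from the gene, against 3181 bp for flanking regions of all protein-coding genes (quartiles 1651.5 and 4071). Only 3 of the 14 overlapped no gene, so most of them lay over another gene. The same count over all genes is not given here.

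The regions of the 9 genes were of ordinary size. By the widths, a region is built from windows of 300 bp that step by 50 bp. The 52 regions had a median of 7 windows and 600 bp (range 3 to 10 windows, 400 to 750 bp). All 65983 regions had a median of 6 windows and 550 bp. Windows ran without a gap in 52 of the 52 regions and in 97.8% of all regions. Promoter regions of the members had a median of 7 windows, as had those of all protein-coding genes, and intron regions had 6 in both. Added up, Tnfrsf9 had 71 windows over 6050 bp and Cd28 67 over 5850 bp, while Cd69 had 13 over 1150 bp.

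The nearest other region lay a median of 2400 bp from a region of the 9 genes (quartiles 1300 and 3725), against 4300 bp for all regions naming a protein-coding gene. Within a gene the median gap between neighbouring regions ran from 1050 bp at Cd69, with 1 gap, to 4725 bp at Icos.

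**Figure D4:**
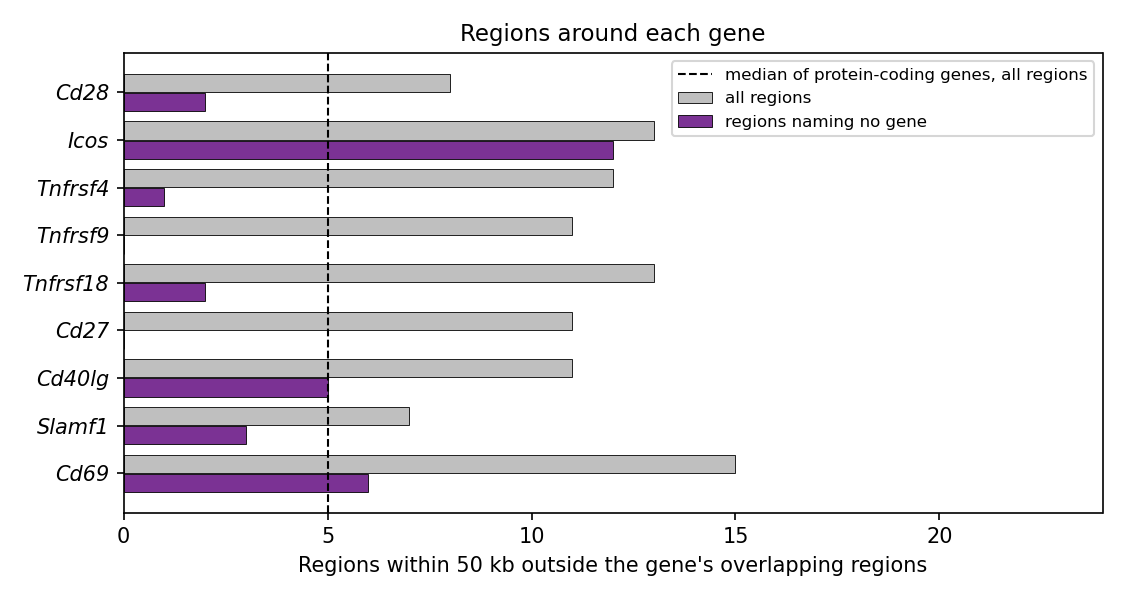
Regions within 50 kb on either side of the stretch spanned by each gene's overlapping regions, in all (grey) and those naming no gene (purple), with the median of protein-coding genes for all regions as a dashed line. All 9 genes lie above that median of 5, and Icos has the most regions that name no gene, 12.

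Regions farther from the genes than 5000 bp are not credited to them by the table. Within 50 kb of the stretch spanned by its overlapping regions, each of the 9 genes had 7 to 15 regions, its own flanking regions included, with a median of 11 against 5 for protein-coding genes (quartiles 3 and 8). Without regions that name the gene itself there were 6 to 15, with a median of 9 against 5 (quartiles 2 and 7.75), and Tnfrsf18, with 4 flanking regions of its own, went from 13 to 9. Of the members' own 52 regions, 23 already overlapped another gene. Around the genes, some regions likewise name neighbouring genes: of the 8 at Tnfrsf9 and the 9 at Cd27 that do not name the gene itself, 0 named no gene. Icos had 12 regions there that named no gene, 6 on each side, more than 99.9% of protein-coding genes. Cd69 had 6, of which 5 lay upstream at 8550 to 40600 bp from its nearest overlapping region with 6 to 9 windows each. Cd40lg had 5, all upstream at 23750 to 43500 bp, with 2 to 8 windows each. Tnfrsf9 and Cd27 had 0, which was also the median of protein-coding genes (quartiles 0 and 1). Cd69 had more regions naming no gene than 97.9% of protein-coding genes, and Cd40lg more than 96.3%. Cd69, which had the fewest regions by name, thus had the most regions around it, 15. Which gene any of these regions acts on was not measured.

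The wider pathway was described with lists of 47 other genes, of which 46 had a region and 42 a promoter region. Of all RefSeq protein-coding symbols 70.9% had a region and 61.7% a promoter region. Symbols were joined by name between builds, so one named otherwise in the table counts as without a region, and these shares may be too low. The median of the lists was 5 regions, and 33 of the 47 genes had more than 3, as had 22.5% of all RefSeq symbols and 31.8% of the named protein-coding genes. The lists hold many genes known to be used in T cells, besides ligands carried mainly by other cells. These shares were not tested. The other CD28 family receptors had 5 regions (Btla) to 12 (Ctla4). Among B7 family ligands, which are carried mainly by antigen-presenting cells, Cd80 had 3 and Cd86 8. Other TNF receptors ran from 2 at Tnfrsf14 and Tnfrsf25 to 13 at Tnfrsf8, which encodes CD30.

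For the 4 TNF receptors among the 9 genes, 3 ligands had fewer regions than their receptors. Tnfsf9, the ligand of 4-1BB, had 2, Cd70 had 1 and Tnfsf18, the ligand of GITR, had 0, while Tnfsf4, the ligand of OX40, had 4 against 3 at its receptor. Of the other TNF ligands Tnfsf8 had 7 and Fasl 2. In the SLAM family and its adaptors the counts ran from 1 at Slamf8 and Slamf9 to 27 at Fyn, a kinase that couples to SLAM receptors through the adaptor Sh2d1a. TRAF adaptors had 3 (Traf6) to 8 (Traf1 and Traf5). The CD28 and ICOS signalling list had the highest median, 14. It ran from 3 at Rela, an NF-kB subunit, to 25 at Prkcq, the protein kinase C that links CD28 to NF-kB. The counts of the lists were not divided by gene length either.

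As a check of the cell label, 8 of 8 CD4 T cell and Th1 markers had regions (3 to 10 each, against 70.9% of RefSeq protein-coding symbols with any), among them Cd3e, Cd4, Lck and Ifng. A promoter region was listed at 7 of the 8 (61.7% of symbols), the exception being Tbx21, the Th1 master regulator, with 6 regions and 0 at its promoter. Of 4 myeloid markers 1 had a region, Itgam with 6, and Lyz2, Csf1r and Cd14 had 0. Of 3 B cell markers 2 had a region, with Cd79a at 4 that were all flanking, Pax5 at 4 and Ms4a1 at 0. Of 3 erythroid markers Gata1 and Klf1 had 2 each and Hbb-bt 0. Of the CD8 genes Cd8a had 1, which was flanking, and Cd8b1 had 2. A promoter region was also listed at 2 of the 3 erythroid, 1 of the 3 B cell, 1 of the 4 myeloid and 1 of the 2 CD8 genes. A listed region gives no level.

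Genes with exactly the same counts of promoter, exon, intron and flanking regions were sought among the named protein-coding genes, as a measure of likeness over these 4 counts. No other gene matched Cd28 or Tnfrsf9. Tnfrsf18 matched 5 genes (the first by alphabet H2bc3, Icam1 and Rab1b), Cd40lg 9 (Glce, Havcr2 and Itpr3), Slamf1 10 (Ammecr1, Cdh1 and Dthd1) and Icos 65 (4930558K02Rik, AB124611 and Adam17). Tnfrsf4 matched 546 genes (0610010K14Rik, 1600014C23Rik and 1700001C19Rik), Cd27 387 (1520401A03Rik, 1700001P01Rik and 1700020L24Rik) and Cd69 384 (1700029H14Rik, 1700037C18Rik and 1810010H24Rik).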

How the data were processed

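Libraries were made by ATAC-seq, where open DNA is tagged by a transposase. The submitters' processing notes name the build GRCm39 and the tools edgeR, BWA, Picard and Trim Galore, with neither version nor role. The deposited table of the authors holds 65983 regions under each of 6 contrasts and no value per sample. Per the file headers its columns are a p-value, an adjusted p-value and a log2 fold change, which were used only to check their order, and the region width and window numbers (here unit-less scores beside bp), as deposited. Normalization, merging software and the origin of replicates (animal or culture): not given in the sources used here.

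Genes named in the overlap, left and right columns were parsed with Python 3.11.15 and pandas 2.3.3, and the parsing and the motif search were tested on simulated data. Protein-coding genes were those whose symbol is protein-coding in RefSeq GRCm38.p6; 19192 of 26755 names matched a RefSeq symbol. The promoter table's orientation was checked where promoters of opposite strands overlap (1341 of 1341 read as reverse complements). The 9 genes and the lists were chosen with earlier results of these data known. The named genes were all members, the genes with the most and fewest regions in each list, and genes of equal profile by alphabet. The 50 kb surroundings, the markers' promoter counts and the motifs in RefSeq promoters were chosen with the table in view; the planned motif counts inside regions needed a genome and were not run. A further marker of the cell type check is not reported here.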

Additional observations from a re-analysis of the deposited data

How the results depend on the processing

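No paired analysis was possible because values of single samples are not in the table used here, and no replicate could be left out. The 52 regions were 38 with overlapping regions alone. They were 52 when regions within 500 bp were merged, when at least 3 windows were required, and under each other contrast. The merging, the window limit and the change of contrast could not alter the count, so they say nothing of its stability. The nearest other region lay at least 700 bp away, each of the 52 regions had at least 3 windows, and the region rows were identical under all 6 contrasts. Counting each region in 1 class, promoter first, moved the exon regions from 14 to 5. The promoter regions stayed at 16 and the intron regions went from 22 to 17, within 1.5 times. With overlapping regions alone, the median width stayed at 600 bp and the median windows at 7. For the flanking regions that overlap no gene, only 3 of the 14, the median distance was 3999 bp against 3810 bp. With overlapping regions alone Tnfrsf18 fell from 5 to 1 and Cd27 from 3 to 1. Setting RefSeq genes without a region to 0 raised each gene's share of genes with fewer regions, from 25.1% to 46.9% at Cd69 and from 94.6% to 96.2% at Cd28. With the 50 bases after the start, chosen after the data were seen, 6 of 6 promoters held an E-box, as did 72.3% of all promoters over the same 300 bases. Regions per gene length and promoters from an annotation were not run, since no annotation of this build was at hand. Depth is unknown, so what it limits was not judged.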
